A study of Mus musculus with 10 samples.

Results

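The genes described here take part in the last stages of epidermal differentiation, when keratinocytes build the cornified envelope. They are all rows listed as protein-coding whose symbol begins with *Sprr* or *Lce* and a number, together with *Lor*, *Ivl*, *Flg2*, *Sbsn*, *Krtdap*, *Tgm1*, *Tgm3*, *Dsg1a*, *Dsc1*, *Hrnr*, *Rptn*, *Casp14*, *Cdsn*, *Klk5*, *Klk7*, *Alox12b* and *Aloxe3*. The rule reads only the symbol and the listed gene type, but it was drawn up with earlier results of these data known. It gave 52 of the 35275 genes listed in every table, of which 20 are *Lce* genes, 15 are *Sprr* genes and 17 were named one by one. *Flg*, which encodes filaggrin, was also named but is listed as a processed transcript, so it is not counted among the 52 and its values are given beside them. *Sprr2j-ps* carries a pseudogene's name but is listed as protein-coding and was kept.

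RNA was sequenced from 10 cutaneous squamous tumors of mice, 5 with the genotype label LDHA-/- (*Ldha*-null) and 5 labelled wild type. By the series description no animal gave more than 1 tumor. *Ldha* encodes lactate dehydrogenase A, which makes lactate from pyruvate, and the study asked whether tumors that arise from hair follicle stem cells need it. In the study, floxed *Ldha* was removed in those stem cells by the inducible drivers K15CrePR or Lgr5CreER, in genetically engineered tumor models or in tumors started by DMBA and TPA, on a mixed C57BL6/FVB background, and some tumors were mosaic for the deletion. Which of these models, drivers and ages the sequenced tumors belong to is not given in the sources used here, and no sorting of carcinoma cells is described. Values below are given in the order of tumors 1 to 5 of each genotype. FPKM is the number of fragments per kilobase of gene, scaled to the counted fragments of the tumor. It allows for gene length and sequencing depth, but not for very abundant genes that take up part of a tumor's counts. In *Ldha*-null tumor 1, 12 skeletal muscle genes held 13.9% of the counts, against 0.00476% to 0.0266% in the other tumors. FPKM set side by side between tumors is therefore approximate.

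As keratinocytes leave the basal layer they first make involucrin and the membrane-bound transglutaminase 1, which begin to line the inside of the plasma membrane, and desmosomal cadherins that hold the suprabasal layers together. Later, in the granular layer, loricrin and the small proline-rich (*Sprr*) and late cornified envelope (*Lce*) proteins are cross-linked onto that scaffold, S100-fused proteins such as filaggrin, hornerin and repetin fill the cell, lipoxygenases prepare the lipid coat, and kallikrein proteases cut corneodesmosin so that dead cells can be shed. In squamous tumors these genes are known as a measure of how far the tumor cells still keratinize.

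For the comparison of steps, *Ivl*, *Tgm1*, *Krtdap*, *Sbsn*, *Dsg1a* and *Dsc1* were taken as the early step (6 genes), and *Lor*, *Flg2*, *Hrnr*, *Rptn*, *Tgm3*, *Casp14*, *Cdsn*, *Klk5*, *Klk7*, *Alox12b* and *Aloxe3* as the late step (11 genes). The *Sprr* and *Lce* genes were kept as families of their own. They fell into *Sprr1* (2 genes), *Sprr2* (11), *Sprr3* (1), *Sprr4* (1), *Lce1* (13), *Lce3* (6) and *Lce6* (1).

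Of the 52 genes, 40 lie side by side on chromosome 3, in the epidermal differentiation complex. They span chr3:92080271-93399442 (build mm10, 1.32 Mb), from *Lor* to *Rptn*, where the tables list 53 genes in all, 49 of them protein-coding. The other 12 are spread over chromosomes 2, 7, 10, 11, 14, 17 and 18. Within the complex the *Sprr2* genes lie together between *Lor* and *Sprr1b*, *Ivl* stands between the *Sprr* and the *Lce* genes, the *Lce1* and *Lce3* genes follow, and *Flg2*, *Hrnr* and *Rptn* close the row.

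Promoter sequence of 47 of the 52 genes was read from RefSeq (build GRCm38.p6), as windows from 250 bases before to 50 bases after each RefSeq start, which need not be the start given in the tables. Each window was searched on both strands for TGANTCA, the core letters bound by AP-1, and for the TATA-box letters TATAAA, which cannot share a base with it. TGANTCA was found in 9 of 14 *Sprr* windows (64.3%), in 3 of 4 windows of the early step and 3 of 10 of the late step, and in 0 of 19 *Lce* windows, against 2565 of 32851 windows of all genes (7.81%). TATAAA was found in 10 of 14 *Sprr* windows (71.4%) and 3 of 19 *Lce* windows (15.8%), against 13.6% of all windows. These are matches of letters and not binding sites. The 250 bases before the start are shown for 6 genes on chromosome 3, 2 *Sprr1* genes, involucrin and loricrin, which hold both motifs, and the *Lce1* and *Lce3* gene of the highest mean level, which hold neither. They are written 5′ to 3′ along the gene with both motifs in capitals.
*Sprr1a* (chr3:92485882-92486131, minus strand): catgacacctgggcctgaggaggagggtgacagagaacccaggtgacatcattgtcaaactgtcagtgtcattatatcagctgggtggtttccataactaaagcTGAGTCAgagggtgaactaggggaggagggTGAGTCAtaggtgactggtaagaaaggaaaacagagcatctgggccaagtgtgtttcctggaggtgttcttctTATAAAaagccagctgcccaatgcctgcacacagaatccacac
*Sprr1b* (chr3:92438780-92439029, minus strand): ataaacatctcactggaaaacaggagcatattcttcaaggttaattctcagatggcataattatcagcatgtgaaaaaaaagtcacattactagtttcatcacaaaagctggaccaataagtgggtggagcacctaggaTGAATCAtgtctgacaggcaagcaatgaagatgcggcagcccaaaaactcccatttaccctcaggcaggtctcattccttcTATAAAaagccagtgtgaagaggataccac
*Ivl* (chr3:92573736-92573985, minus strand): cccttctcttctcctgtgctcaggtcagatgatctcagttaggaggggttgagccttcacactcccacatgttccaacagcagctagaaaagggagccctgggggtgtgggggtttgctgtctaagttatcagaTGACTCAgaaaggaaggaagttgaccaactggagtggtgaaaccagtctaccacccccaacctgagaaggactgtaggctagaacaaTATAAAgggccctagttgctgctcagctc
*Lor* (chr3:92083143-92083392, minus strand): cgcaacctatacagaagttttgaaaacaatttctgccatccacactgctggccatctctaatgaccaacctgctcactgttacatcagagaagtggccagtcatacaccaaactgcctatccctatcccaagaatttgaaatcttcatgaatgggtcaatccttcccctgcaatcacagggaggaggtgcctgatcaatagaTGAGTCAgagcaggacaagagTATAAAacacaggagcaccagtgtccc
*Lce1a2* (chr3:92670316-92670565, minus strand): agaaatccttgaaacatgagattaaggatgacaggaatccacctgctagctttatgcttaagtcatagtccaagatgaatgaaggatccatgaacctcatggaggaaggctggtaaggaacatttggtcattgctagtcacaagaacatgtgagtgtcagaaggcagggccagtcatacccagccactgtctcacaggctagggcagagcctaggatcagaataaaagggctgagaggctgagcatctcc
*Lce3c* (chr3:92944236-92944485, plus strand): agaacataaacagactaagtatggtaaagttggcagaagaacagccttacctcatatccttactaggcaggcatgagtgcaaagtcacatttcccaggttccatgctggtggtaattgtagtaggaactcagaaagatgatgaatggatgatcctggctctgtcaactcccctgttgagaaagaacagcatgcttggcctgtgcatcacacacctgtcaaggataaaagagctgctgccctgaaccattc

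Total counts were 12969508 to 17694201 per tumor, so 3 counts, the upper limit that a count of 0 allows, were 0.17 to 0.231 CPM. The targeted gene did not separate the labels, since *Ldha* stood at 1882, 246, 1288, 542 and 324 FPKM in the tumors labelled *Ldha*-null and at 390, 340, 345, 589 and 2824 FPKM in the wild-type group. The deleted part of *Ldha* is not named in the sources used here, so this neither checks nor refutes a label. Of 12 skeletal muscle genes, all 12 were highest in *Ldha*-null tumor 1, with a summed level of 115389 FPKM there and 52.7 to 268 FPKM in the remaining 9. The 8 mesenchymal genes summed to 544 FPKM in that tumor, to 3964 FPKM in *Ldha*-null tumor 3, to 6299 FPKM in wild-type tumor 5 and to 9036 to 16246 FPKM in the other 7. The basal keratins *Krt5* and *Krt14* were present in every tumor but far apart in level, as together they stood at 4842, 2361, 31079, 738 and 1705 FPKM in *Ldha*-null tumors and at 182, 3358, 833, 448 and 34477 FPKM in the wild-type group. For 4 of the 6 basal keratinocyte genes listed, these among them, *Ldha*-null tumor 3 and wild-type tumor 5 were the top pair. *Krt15* was instead highest in *Ldha*-null tumor 1 (140 FPKM). *Itgb4* was highest in wild-type tumor 5 (328 FPKM), but *Ldha*-null tumor 4 (166 FPKM) stood above *Ldha*-null tumor 3 (52.2 FPKM). Genes that structure the hair shaft and its sheath, 13 in number, summed to 3.16 to 10.1 FPKM in *Ldha*-null tumors and 1.12 to 13.7 FPKM in the wild-type group, and 11 of the 13 were at 0 in at least 1 tumor.

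The differentiation genes varied widely between tumors of the same genotype. Together the 52 genes summed to 2201, 647, 13580, 328 and 1102 FPKM in the *Ldha*-null tumors and to 49.4, 1288, 454, 157 and 10097 FPKM in the wild-type group. *Ldha*-null tumor 3 and wild-type tumor 5 stood far above the rest, wild-type tumor 1 stood lowest, and the genotypes overlapped over nearly the whole range. These tumors were the top 2 of the 10 for 43 of the 52 genes, with the highest value in *Ldha*-null tumor 3 for 31 genes, in wild-type tumor 5 for 18 and elsewhere for 3. Wild-type tumor 1 held the lowest value, alone or tied, for 44. At least 1 FPKM was reached by 49 of the 52 genes in each of the 2 highest tumors and by 7 in wild-type tumor 1, where 15 genes had 0 counts. In whole tumors, fewer keratinocytes and less RNA per keratinocyte cannot be told apart.

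**Figure D1:**
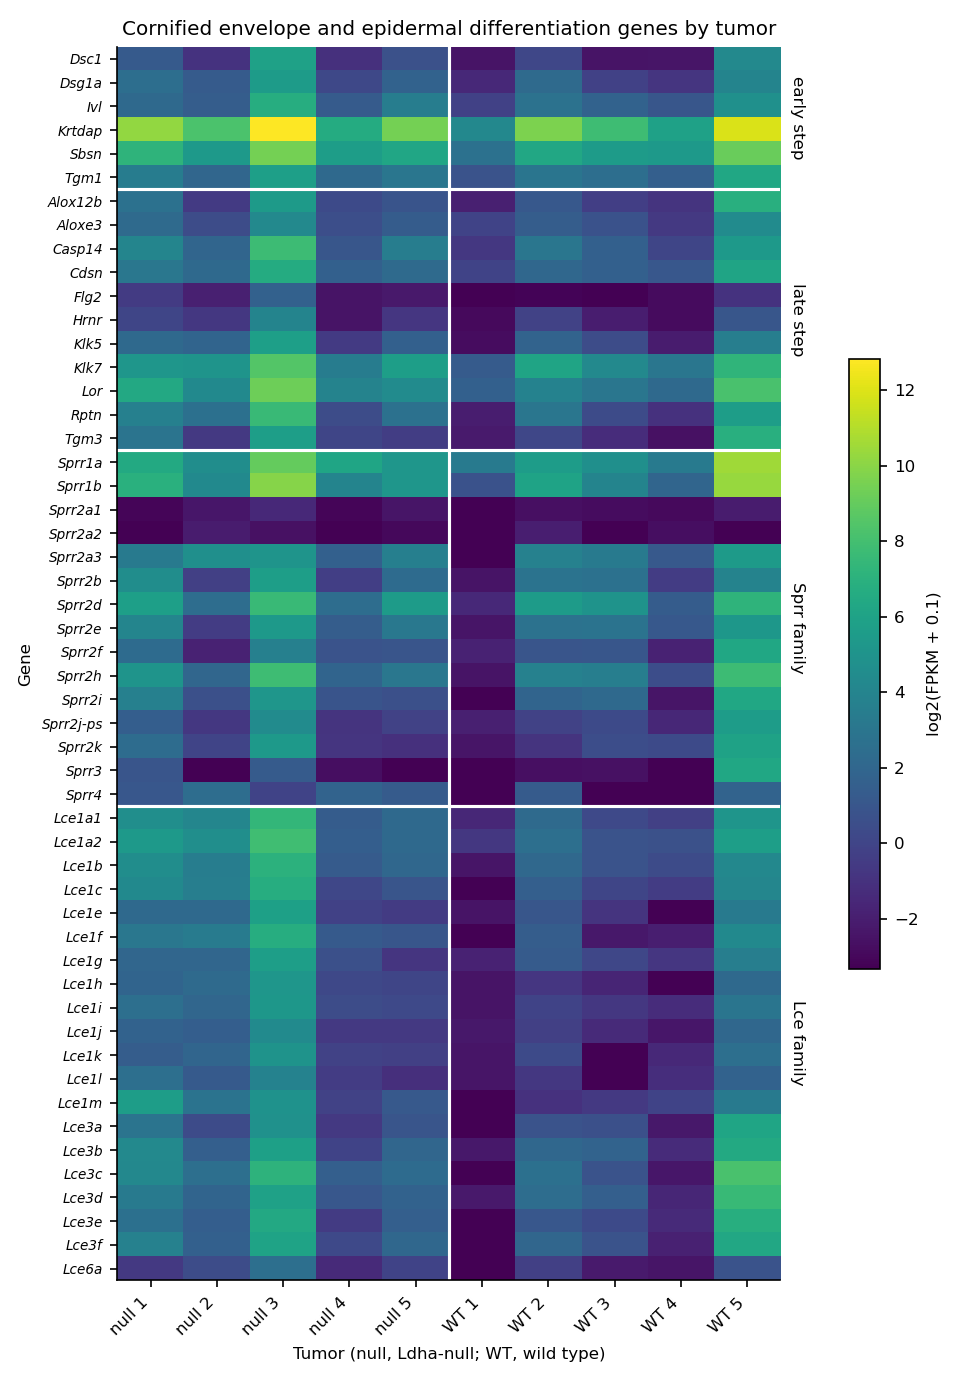
Level of each of the 52 genes (rows, grouped by early step, late step, Sprr and Lce families) in each of the 10 tumors (columns), as log2(FPKM + 0.1) on the colour scale. Ldha-null tumor 3 and wild-type tumor 5 are the brightest columns and wild-type tumor 1 the darkest.

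Early-step genes were detected in every tumor. *Krtdap*, a small secreted protein of differentiating keratinocytes, was the most abundant of all 52 genes in each of the 10 tumors, at 1195, 301, 7296, 96.2 and 693 FPKM in *Ldha*-null tumors and 18.4, 810, 222, 59.8 and 3896 FPKM in the wild-type group. Its neighbour on chromosome 7, *Sbsn* (suprabasin), was the second of the early genes in every tumor, at 145, 42.5, 718, 51.5 and 74.7 FPKM and at 6.31, 81.6, 45.8, 42.9 and 555 FPKM. For both genes the same 2 tumors were highest and wild-type tumor 1 was lowest, while the other 7 tumors of the 2 genotypes interleaved.

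*Ivl*, which encodes the scaffold protein involucrin, stood at 4.5, 2.6, 105, 2.39 and 11.4 FPKM in *Ldha*-null tumors and at 0.768, 6.62, 3.3, 1.88 and 27.8 FPKM in the wild-type group. *Tgm1*, the transglutaminase that starts the cross-linking, stood at 10.7, 4.01, 55, 4.58 and 8 FPKM and at 1.62, 7.51, 5.53, 2.9 and 78.6 FPKM. Of the early genes, only *Tgm1* had its highest value in wild-type tumor 5. The desmosomal cadherin *Dsg1a* was at 5.7, 2.4, 46.1, 1.02 and 3.28 FPKM in *Ldha*-null tumors and at 0.266, 4.8, 0.786, 0.467 and 15.3 FPKM in the wild-type group, although 35% of its 50-base stretches also occur in other genes, among them *Dsg1b* and *Dsg1c*. *Dsc1*, its partner in suprabasal desmosomes, had the steepest profile of the early genes, at 2.3, 0.414, 59.7, 0.367 and 1.52 FPKM and at 0.077, 0.974, 0.0817, 0.0898 and 19.2 FPKM.

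Among the late-step genes, *Lor* and *Klk7* were the 2 most abundant in all 10 tumors and together made 50.7% to 73.4% of the summed late level. *Lor*, which encodes loricrin, the main protein of the mature envelope, stood at 86.8, 20.1, 626, 14.9 and 22.4 FPKM in *Ldha*-null tumors and at 2.97, 14, 7.93, 4.57 and 293 FPKM in the wild-type group. Wild-type tumors 1 to 4 were all below the lowest *Ldha*-null tumor for *Lor*, and wild-type tumor 5 was above 4 of the 5 *Ldha*-null tumors. *Klk7*, a protease that cuts corneodesmosin, stood at 36.1, 33.5, 360, 10.7 and 52.2 FPKM and at 2.43, 68.3, 19.1, 8.03 and 149 FPKM. *Klk5*, which activates *Klk7*, was at 4.55, 3.65, 55.3, 0.584 and 3.03 FPKM and at 0.0469, 3.46, 1.24, 0.137 and 11.8 FPKM. Their substrate *Cdsn* (corneodesmosin) was at 8.56, 4.5, 98.3, 3.02 and 4.8 FPKM and at 0.869, 4.02, 3.05, 1.98 and 67.6 FPKM. All 3 genes of this shedding step were highest in *Ldha*-null tumor 3, by 2.41-fold over wild-type tumor 5 for *Klk7*, 4.67-fold for *Klk5* and 1.46-fold for *Cdsn*.

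The S100-fused proteins *Flg2* and *Hrnr* were the scarcest late genes on average. *Flg2* (filaggrin 2) stood at 0.59, 0.165, 3.16, 0.0774 and 0.112 FPKM in *Ldha*-null tumors and at 0, 0.00971, 0, 0.0403 and 0.409 FPKM in the wild-type group. *Hrnr* (hornerin) stood at 0.926, 0.514, 15.4, 0.0828 and 0.499 FPKM and at 0.0319, 0.798, 0.141, 0.0362 and 1.92 FPKM. *Rptn* (repetin) was more abundant, at 13.1, 6.11, 195, 1.26 and 6.55 FPKM and at 0.14, 7.9, 1.19, 0.395 and 51.7 FPKM. Each of the 3 was several-fold higher in *Ldha*-null tumor 3 than in wild-type tumor 5 (7.71-fold for *Flg2*, 7.99-fold for *Hrnr* and 3.77-fold for *Rptn*). Outside the 52 genes, the row listed as *Flg* stood at 53.8, 43.8, 810, 11.4 and 48.7 FPKM and at 3.96, 46, 9.73, 6.48 and 56.4 FPKM, with the widest gap of these between the same tumors (14.4-fold).

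*Casp14*, the caspase of cornification that takes part in breaking down filaggrin, stood at 16.5, 3.78, 219, 1.89 and 11.2 FPKM in *Ldha*-null tumors and at 0.524, 7.89, 2.98, 0.922 and 43.3 FPKM in the wild-type group. It too was higher in *Ldha*-null tumor 3 than in wild-type tumor 5 (5.07-fold). The order of these tumors was the opposite for *Tgm3*, the late soluble transglutaminase, at 7.39, 0.532, 53.6, 0.933 and 0.659 FPKM and at 0.127, 1, 0.317, 0.0683 and 116 FPKM. It was also the opposite for *Alox12b*, the first enzyme of the lipoxygenase pair that builds the lipid envelope, at 6.48, 0.572, 45.1, 1.12 and 1.77 FPKM and at 0.167, 2.07, 0.698, 0.442 and 115 FPKM. *Aloxe3*, the second enzyme of the pair, was nearly equal in the 2 tumors, at 4.63, 1.25, 19.5, 1.37 and 2.51 FPKM and at 0.858, 2.67, 1.57, 0.545 and 22.2 FPKM.

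Early and late steps moved together from tumor to tumor. The early genes summed to 1364, 353, 8281, 156 and 791 FPKM in *Ldha*-null tumors and to 27.4, 911, 277, 108 and 4592 FPKM in the wild-type group, a span of 302-fold. The late genes summed to 186, 74.7, 1690, 35.9 and 106 FPKM and to 8.17, 112, 38.3, 17.2 and 873 FPKM, a span of 207-fold. The late sum was nevertheless between 12.3% (wild-type tumor 2) and 29.8% (wild-type tumor 1) of the early sum in every tumor. *Krtdap* alone made 55.4% to 88.9% of the early sum. Without it, the late sum was 0.356 times (wild-type tumor 4) to 1.72 times (*Ldha*-null tumor 3) the early sum.

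To weigh each gene equally, the mean of log2(FPKM + 0.1) over the late genes was set against that over the early genes within each tumor. Late minus early was -1.56, -1.58, -1.64, -1.95 and -2.36 in *Ldha*-null tumors and -1.76, -2.27, -2.02, -2.38 and -1.78 in wild-type tumors, in log2 units. It was below 0 in 10 of 10 tumors. The mean was -1.82 ± 0.341 in *Ldha*-null tumors and -2.04 ± 0.28 in wild-type tumors (SD, n = 5 each), a difference of 0.23 that is smaller than either SD. The tumors with the highest and the lowest level of both steps, *Ldha*-null tumor 3 and wild-type tumor 1, differed by 7.12 log2 units in the early mean and by 7.25 in the late mean, but by 0.12 in late minus early. That 0.12 depends on the 0.1 added to FPKM. In wild-type tumor 1 the late genes *Flg2*, *Hrnr* and *Klk5* (0, 0.0319 and 0.0469 FPKM) and the early gene *Dsc1* (0.077 FPKM) were below it. The difference between genotypes was 0.01 with 1 added and 0.43 with 0.01 added. Without *Ldha*-null tumor 3 and wild-type tumor 5, a setting chosen after the data were seen, the difference between genotypes was 0.25. With the *Lce* family counted as late it was 0.75.

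**Figure D2:**
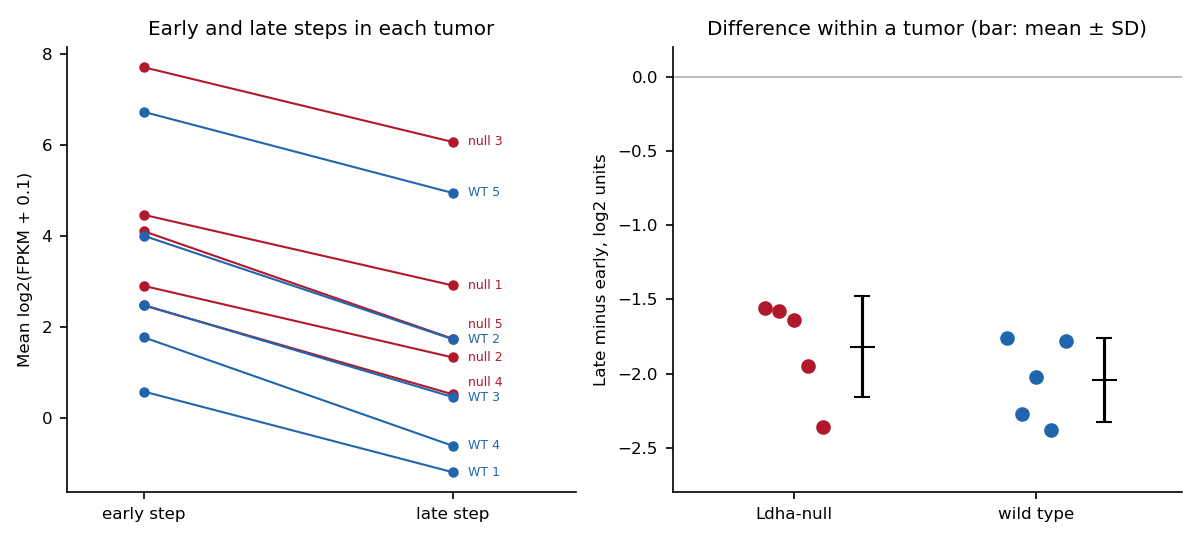
Left, mean log2(FPKM + 0.1) of the 6 early and the 11 late genes, with a line for each tumor (red, Ldha-null, blue, wild type). Right, late minus early in each tumor in log2 units with the mean ± SD of 5 tumors, -1.82 for Ldha-null and -2.04 for wild type; the lines are nearly parallel although the levels differ widely.

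The *Sprr* family summed to 376, 90.4, 2141, 110 and 159 FPKM in *Ldha*-null tumors and to 12, 212, 118, 24.4 and 3585 FPKM in the wild-type group. *Sprr1a* and *Sprr1b*, cross-bridging proteins of the envelope that hold both promoter motifs shown above, made most of that sum in 7 of 10 tumors. *Sprr1a* stood at 88.9, 24.1, 519, 71 and 36.3 FPKM in *Ldha*-null tumors and at 9.52, 49.1, 26.8, 10.1 and 1460 FPKM in the wild-type group. *Sprr1b* stood at 120, 20.6, 949, 15.5 and 35.2 FPKM and at 1.56, 65.7, 15.5, 3.79 and 1316 FPKM. Both were highest in wild-type tumor 5, at 2.81-fold and 1.39-fold the level of *Ldha*-null tumor 3.

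The *Sprr2* genes reached lower levels, and their sum was 164, 40.4, 669, 19.6 and 85.3 FPKM in *Ldha*-null tumors and 0.962, 94.8, 75.7, 10.5 and 726 FPKM in the wild-type group. *Sprr2d* was the most abundant on average, at 55.1, 5.44, 199, 5.31 and 46 FPKM and at 0.256, 47.2, 31.8, 2.49 and 148 FPKM. *Sprr2h* followed, at 32.8, 3.85, 227, 3.61 and 8.54 FPKM and at 0.0773, 13.4, 11.7, 1.28 and 213 FPKM. *Sprr2a3* was flatter, at 9.51, 26.5, 33.5, 3 and 12.5 FPKM and at 0, 13.9, 9.93, 2.23 and 44.6 FPKM. The ratio of *Sprr1* to *Sprr2* sums ran from 0.559 in wild-type tumor 3 to 11.5 in wild-type tumor 1, and it was 2.2 in *Ldha*-null tumor 3 and 3.82 in wild-type tumor 5. The 11.5 is uncertain, as each *Sprr2* gene had only 0 to 3 counts in wild-type tumor 1. The next highest ratio was 4.42, in *Ldha*-null tumor 4.

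Some *Sprr* genes stood apart from the shared profile, and *Sprr3* and *Sprr4* are named after their values were seen. *Sprr2f* was at 5, 0.19, 12.9, 1.68 and 1.79 FPKM in *Ldha*-null tumors and at 0.191, 1.79, 1.9, 0.186 and 78 FPKM in the wild-type group, so that wild-type tumor 5 was 6.06-fold above *Ldha*-null tumor 3. *Sprr3*, a gene of wet mucosal surfaces such as the oesophagus, was at 79.5 FPKM in wild-type tumor 5 and at most 2.39 FPKM in the remaining 9, with 0 counts in 4 of them. In the same tumor the mucosal keratin *Krt13* stood at 1821 FPKM, against 0.23 to 36.1 FPKM in the remaining 9, and *Krt4* at 13.4 FPKM against 0.226 to 1.54 FPKM. The third mucosal keratin listed, *Krt76*, was highest in wild-type tumor 4 at 11.9 FPKM and stood at 1.82 FPKM in wild-type tumor 5. The part of mucosal-type cells in these values was not tested. *Sprr4*, on 0 to 21 counts a tumor, was highest in *Ldha*-null tumor 2 (5.27 FPKM), next in wild-type tumor 5 (3.47 FPKM) and at 0 counts in 3 wild-type tumors, while *Ldha*-null tumor 3 had 0.863 FPKM. *Sprr2a1* and *Sprr2a2* stayed under 0.3 FPKM in every tumor; their annotated spans overlap and 96.3% and 96.5% of their 50-base stretches occur in other genes, so their counts, and those of *Sprr2a3* (61.1%), are uncertain.

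*Lce1* and *Lce3* genes, which share a chromosomal block, did not keep to one ratio. The 13 *Lce1* genes, which belong to normal interfollicular differentiation, summed to 200, 109, 1023, 18.2 and 23.6 FPKM in *Ldha*-null tumors and to 1.55, 28.5, 8.46, 6.59 and 201 FPKM in the wild-type group. The 6 *Lce3* genes, which in skin are known for induction after barrier injury and in psoriasis, summed to 74.8, 19.2, 440, 7.94 and 21.1 FPKM and to 0.222, 23.1, 12.1, 1.2 and 845 FPKM. All 13 *Lce1* genes were at least 2-fold higher in *Ldha*-null tumor 3 than in wild-type tumor 5 (3.18-fold for *Lce1m* to 7.86-fold for *Lce1h*), and all 6 *Lce3* genes were higher in wild-type tumor 5 (1.24-fold for *Lce3f* to 3.21-fold for *Lce3d*). These are 2 single tumors with different labels, so the contrast is a description and has no replicate check.

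*Lce3c* was the most abundant *Lce* gene on average, at 18.8, 5.75, 142, 2.88 and 4.94 FPKM in *Ldha*-null tumors and at 0, 6.04, 1.64, 0.1 and 297 FPKM in the wild-type group. *Lce3d* stood at 9.48, 3.66, 59.7, 1.96 and 3.33 FPKM and at 0.118, 5.41, 2.83, 0.23 and 192 FPKM. *Lce1a2* stood at 42.1, 25.6, 233, 2.68 and 4.43 FPKM and at 0.501, 5.76, 1.66, 1.54 and 54.1 FPKM. For *Lce1a2* the 3 *Ldha*-null tumors 1, 2 and 3 were above 4 of the 5 wild-type tumors, whereas for *Lce3d* *Ldha*-null tumor 2 fell below wild-type tumor 2. *Lce3* genes share 12.1% to 49.3% of their 50-base stretches with other genes of the family and *Lce1* genes up to 27.1%, so the split among neighbours is less certain than the sums.

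As a share of all *Lce1* and *Lce3* counts, *Lce3* made 22.1%, 12.1%, 25.5%, 25.2% and 41.5% in *Ldha*-null tumors and 9.52%, 38.7%, 52.1%, 12.4% and 76.5% in wild-type tumors. The exact (Clopper-Pearson) 95% interval was 75.6% to 77.4% in wild-type tumor 5 and 24.8% to 26.2% in *Ldha*-null tumor 3, and it was as wide as 1.17% to 30.4% in wild-type tumor 1, which had 21 such counts. Intervals cover counting error only. The wild-type tumors hold both the lowest and the highest share, and the *Ldha*-null values lie between them.

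**Figure D3:**
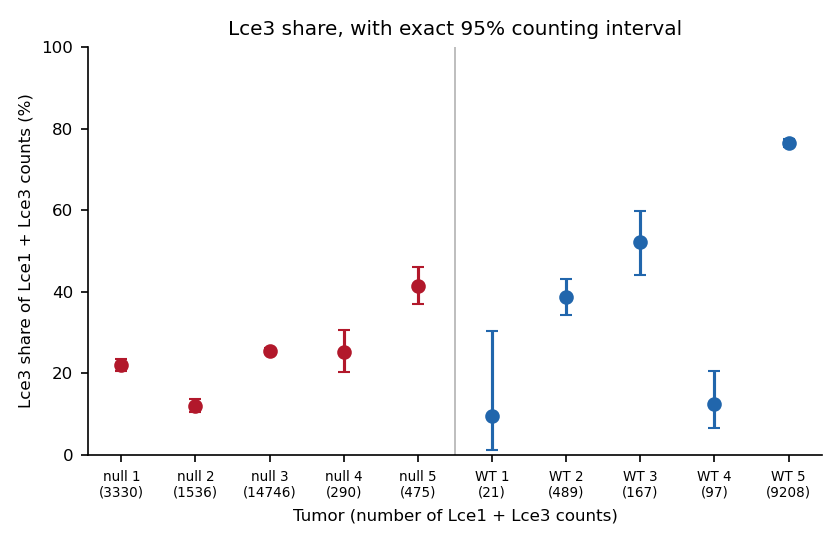
Lce3 share of the summed Lce1 and Lce3 counts in percent for each tumor (red, Ldha-null, blue, wild type), with exact 95% counting intervals and the number of counts in parentheses. Wild-type tumor 5 stands at 76.5% and Ldha-null tumor 3 at 25.5%, with 9208 and 14746 such counts.

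Set against the basal keratins of the same tumor, most of the spread was gone. The summed *Krt5* and *Krt14* level spanned 190-fold between tumors, and this scale rests on those genes alone. Early genes were 28.2%, 14.9%, 26.6%, 21.1% and 46.4% of that level in *Ldha*-null tumors and 15.1%, 27.1%, 33.3%, 24.1% and 13.3% in wild-type tumors, a span of 3.49-fold in place of 302-fold. Late genes were 3.83%, 3.16%, 5.44%, 4.87% and 6.2% of it and 4.5%, 3.34%, 4.6%, 3.83% and 2.53%, a span of 2.45-fold. *Sprr* genes were 7.78%, 3.83%, 6.89%, 14.8% and 9.33% of it and 6.63%, 6.31%, 14.2%, 5.45% and 10.4%. In these 3 groups the genotypes overlapped, and the 2 tumors with the highest levels were not the highest on this scale. Subfamilies kept a wider span on it. *Lce3* genes spanned 20.1-fold (3812-fold in FPKM) and *Sprr2* genes 17.2-fold (755-fold). *Lce1* genes spanned 7.94-fold (661-fold) and *Sprr1* genes 6.19-fold (250-fold).

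*Lce* genes had the largest ratio between the genotype means of the 4 groups on this scale, though not the largest gap in percentage points. They were 5.69%, 5.49%, 4.73%, 3.57% and 2.67% of the basal keratin level in *Ldha*-null tumors and 0.974%, 1.56%, 2.48%, 1.76% and 3.04% in wild-type tumors. The means were 4.43 ± 1.29% and 1.96 ± 0.808% (SD, n = 5 each). Only *Ldha*-null tumor 5 lay below a wild-type tumor, number 5. No test was made of this summed level, because the genes were chosen with earlier results known. The spinous-layer keratins *Krt1* and *Krt10* followed neither pattern, at 7.95%, 2.43%, 11%, 6.07% and 11.3% of the basal keratins in *Ldha*-null tumors and 5.62%, 2.88%, 6.81%, 3.23% and 0.845% in wild-type tumors. Wild-type tumor 5 had the lowest *Krt1* and *Krt10* share. On this scale it also had the lowest early (13.3%) and late (2.53%) shares, but not the lowest *Sprr* or *Lce* share. In FPKM its *Krt1* and *Krt10* sum was 291, below only *Ldha*-null tumors 3 (3421) and 1 (385).

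**Figure D4:**
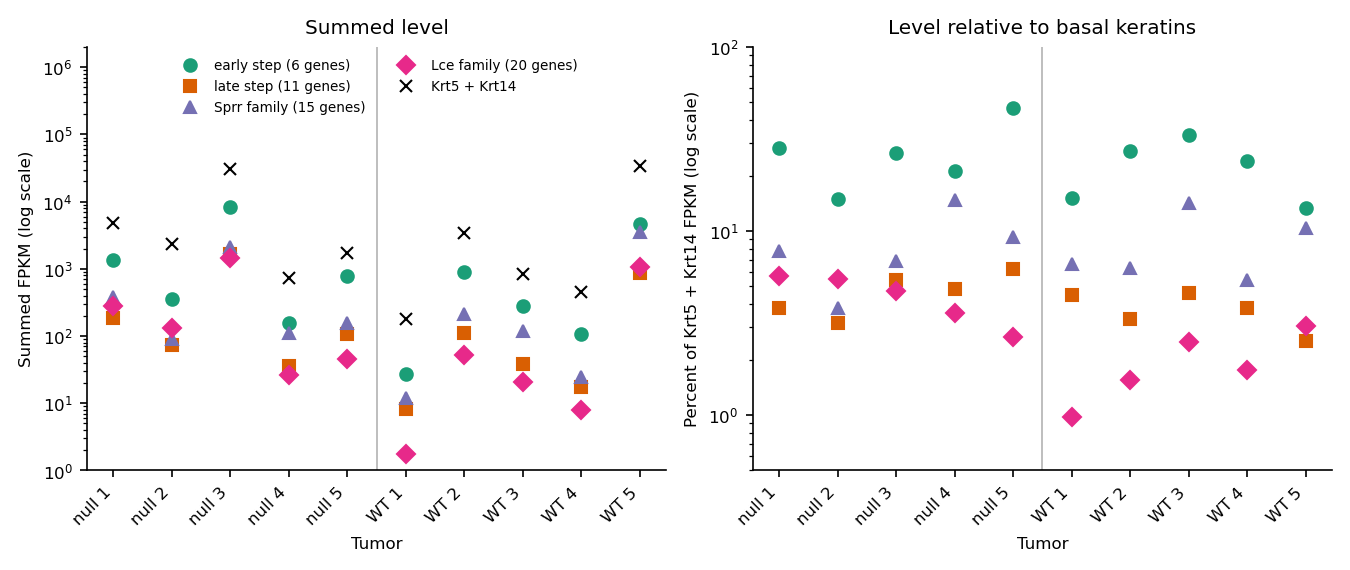
Left, summed FPKM (log scale) of the early genes, late genes, Sprr family and Lce family and of Krt5 with Krt14 in each tumor. Right, the same 4 sums as a percentage of Krt5 with Krt14 (log scale); the spans fall from 302-fold to 3.49-fold for early genes, while the Lce points run from 0.974% to 5.69%.

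Between the genotypes, none of the differentiation genes passed the test. Of the 52 genes, 44 had enough counts to be fitted (17 *Lce*, 10 *Sprr*, 6 early and 11 late), and *Lce1j*, *Lce1l*, *Lce6a*, *Sprr2a1*, *Sprr2a2*, *Sprr2j-ps*, *Sprr3* and *Sprr4* had not. In edgeR's quasi-likelihood test with Benjamini-Hochberg adjustment over all 15176 genes tested, 0 of the 44 were called, against 0.0% of all genes, and the smallest adjusted p was 0.999. At an unadjusted p under 0.05, 2 of the 44 were higher in *Ldha*-null tumors, against 3.56% of all genes, and 0 were lower, against 0.395%. DESeq2 gave a p for 30 of the 44 and none for the other 14, so those could not be called. It called 0 of the 30, with 8 at an unadjusted p under 0.05 against 3.4% of all genes with a p, and limma-voom called 0 of the 44, with 7 against 2.12%. The *Ldha*-null and wild-type values overlapped for all 44, while among all genes they did not overlap for 0.0857% (higher) and 0.0988% (lower).

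The 2 genes past an unadjusted 0.05 were *Lce1m* and *Lce1h*, the second of which is named after its values were seen. *Lce1m* stood at 50.8, 7.07, 30.2, 0.824 and 2.14 FPKM in *Ldha*-null tumors and at 0, 0.388, 0.528, 0.838 and 9.51 FPKM in the wild-type group, and it was the only *Lce* gene with its highest value outside the 2 high tumors, in *Ldha*-null tumor 1, which also holds the muscle genes, whose part in this value was not tested. Its log2 fold change was 3.49 (95% interval 0.01 to 6.97), with an unadjusted edgeR p of 0.0491 and a two-sided exact permutation p of 0.0794. For *Lce1h* the log2 fold change was 3.27 (standard error 1.48), and its 95% interval, -0.0 to 6.54, just reached 0. Its unadjusted edgeR p was 0.0494 and its exact permutation p 0.0556, the smallest permutation p of the 44. Among the lower genes, the smallest p was that of *Sprr2f*, whose log2 fold change of -1.71 had a 95% interval from -5.29 to 1.87.

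The fitted changes pointed up for 32 of the 44 genes and down for 12, with a median log2 fold change of 1.15 against 0.02 over all genes tested. All 11 fitted *Lce1* genes were above 0 (2.13 to 3.49), 2 of 6 *Lce3* genes were, both *Sprr1* genes were below 0, and 5 of 8 *Sprr2* genes were above 0. Under limma-voom with sample weights all 44 pointed up, so the direction of the *Lce3* and *Sprr1* genes depends on the method. The early genes had a median of 1.39 and the late genes of 1.44. *Lor* had a log2 fold change of 1.44 (95% interval -1.93 to 4.8), as its mean ± SEM was 154 ± 119 FPKM over the 5 *Ldha*-null and 64.5 ± 57.2 FPKM over the 5 wild-type tumors. The intervals of the 44 genes, each taken singly, were 5.1 to 8.78 log2 units wide. For most of these genes the highest tumor of each genotype stood far above its others.

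Many of these directions changed when 1 of the 2 highest tumors was left out. Without *Ldha*-null tumor 3, 14 genes pointed up and 30 down, and the median was -0.45. The *Lce1* genes were an exception, with 10 of 11 up at a median of 0.95, while 0 of 6 *Lce3* genes were up. These are neighbouring genes measured in the same tumors, so the 11 are not separate observations of the genotype. For *Lce1a2*, *Ldha*-null tumors 1 and 2 stood at 42.1 and 25.6 FPKM, and *Ldha*-null tumors 4 and 5 at 2.68 and 4.43 FPKM. Without wild-type tumor 5, all 44 pointed up with a median of 4.03, and 35 had an unadjusted edgeR p under 0.05 against 7.01% of all genes, but 0 passed the adjusted threshold. For most of these genes wild-type tumor 5 was the highest of its group, so leaving it out was bound to raise their changes. The 35 therefore show how far the fit rests on that tumor and are no measure of a genotype difference. When wild-type tumor 5 and the *Ldha*-null tumors 1 and 3 were all left out, the median was 0.75, against -0.00205 over all genes tested. These 3 tumors had the lowest summed mesenchymal level, so the setting follows expression. Of the 40 genes then tested 35 pointed up, among them 15 of 15 *Lce* genes. An unadjusted edgeR p under 0.05 was reached by 6 of the 40, against 251 of all 15792 genes, and 0 passed the adjusted threshold. *Lor*, for example, had a log2 fold change of -0.43 without *Ldha*-null tumor 3, 4.81 without wild-type tumor 5 and 1.32 without the 3 tumors, and *Lce3c* had -2.55, 4.61 and 1.19.

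**Figure D5:**
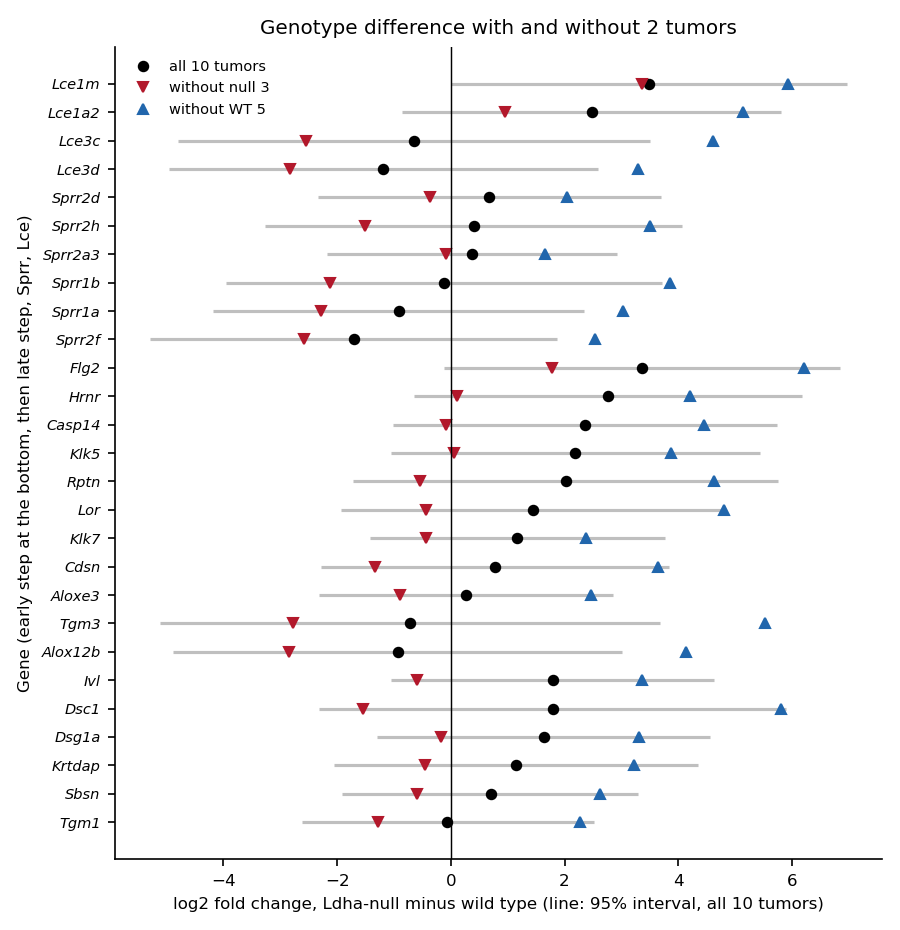
log2 fold change (Ldha-null minus wild type) of 27 named genes that were fitted, with all 10 tumors (black, with the 95% interval as a line), without Ldha-null tumor 3 (red) and without wild-type tumor 5 (blue). All intervals but that of Lce1m cross 0, and leaving out one or the other tumor moves the points in opposite directions, to -0.43 and 4.81 for Lor.

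Of other genes of the same pathway, taken from fixed lists, 0 of 85 fitted genes passed the adjusted threshold in edgeR, against 0.0% of all 15176 genes. At an unadjusted edgeR p under 0.05 there was 1 of them, against 3.96% of all genes. Of the suprabasal keratins, a separate list with 4 fitted genes, *Krt1* and *Krt10* had log2 fold changes of 2.96 and 3.81 with unadjusted edgeR p of 0.0463 and 0.0339 and adjusted p of 0.999. Both were highest in *Ldha*-null tumor 3, at 1518 and 1903 FPKM, and next in *Ldha*-null tumor 1, at 193 and 192 FPKM. The others fitted were *Krt77*, at 2.58 (unadjusted edgeR p 0.139), and *Krt80*, which pointed down at -0.48 (unadjusted edgeR p 0.594). Of 22 regulators of epidermal differentiation, 11 pointed up and 11 down with a median of 0.02. For 13 of them the 2 highest tumors were again *Ldha*-null tumor 3 and wild-type tumor 5. *Klf4*, the most abundant regulator and one needed for the skin barrier, varied less than the envelope genes, at 91.7, 106, 350, 207 and 195 FPKM in *Ldha*-null tumors and at 156, 190, 190, 201 and 260 FPKM in the wild-type group. *Fosl1*, a subunit of AP-1, was lowest in *Ldha*-null tumor 1 at 3.47 FPKM and stood between 38.5 and 105 FPKM in the remaining 9.

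Of 21 fitted genes of the envelope scaffold and its other precursors, 9 pointed up and 12 down. The cysteine protease inhibitor genes *Stfa3* and *Stfa1* were extreme in *Ldha*-null tumor 3. *Stfa3* stood at 218, 174, 6485, 84.1 and 510 FPKM in *Ldha*-null tumors and at 7.06, 388, 353, 87 and 466 FPKM in the wild-type group. *Stfa1* stood at 58.8, 65.8, 1685, 32.9 and 265 FPKM and at 1.11, 309, 194, 36.2 and 1.6 FPKM, so wild-type tumor 5, second or first for most envelope genes, was next to lowest for it.

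Of 15 fitted desquamation proteases and inhibitors, 13 pointed up and 2 down. *Cst6*, which encodes the inhibitor cystatin M/E, was at 22.7, 38.1, 102, 26.2 and 48.8 FPKM in *Ldha*-null tumors and at 35.6, 28.3, 18.4, 15.1 and 29 FPKM in the wild-type group. Its log2 fold change was 1.09 (standard error 0.435), with an unadjusted edgeR p of 0.0298 and an adjusted p of 0.999. Of 6 fitted genes of filaggrin processing, 2 pointed up and 4 down, and *Padi3*, which turns arginine of structural proteins into citrulline, was at 62.8 FPKM in wild-type tumor 5 and at 0.057 to 2.5 FPKM in the remaining 9. Of 20 enzymes and carriers of barrier lipids, 14 pointed up and 6 down with a median of 0.53. Of the other transglutaminases, *Tgm2* and *Tgm5* were fitted, with log2 fold changes of 0.28 and 1.15.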

How the data were processed

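RNA of 10 tumors was sequenced on an Illumina HiSeq. Per the labels, the authors used CASAVA 1.8 and aligned reads to mm10 with TopHat2; HTSeq (union mode) gave the raw counts that the authors deposited together with FPKM for 35275 genes. The library is not described as stranded, so overlapping and antisense genes cannot be separated. For 43 of the 52 genes the listed gene length matched the length behind FPKM within 1%, and for 9 it did not.

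FPKM was used for levels and within-tumor sums, and log2(FPKM + 0.1) for the step means. Counts were tested with edgeR 4.0.16 (limma 3.58.1, R 4.3.3): filterByExpr (minimum count 10, minimum total 15), TMM factors, glmQLFit on genotype with all 10 tumors, and Benjamini-Hochberg adjustment over 15176 genes at 0.05. Single genes also had a two-sided exact permutation test over 252 assignments of the tumors. Alternatives were DESeq2 1.42.0, limma-voom, other scaling and filters, and fits without each tumor. Counts of any 2 tumors of the same genotype differed beyond sampling noise (20 pairs), so no 2 were copies of one library. That check cannot show that tumors are independent. Each tumor was taken as 1 replicate, on the series description that no animal gave more than 1.

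The gene set and lists were chosen with earlier results of these data known, so no list had a p of its own. Values in every tumor are given for the genes named one by one, the 5 *Sprr* and 3 *Lce* genes of highest mean FPKM and the gene of smallest p in each direction. From each pathway list the 3 genes of smallest p and the 2 of highest mean could be named. Tumors were grouped by the genotype label. The share of 50-base stretches found in other genes was computed on GENCODE M21 transcripts. Promoters are from RefSeq.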

Additional observations from a re-analysis of the deposited data

How the results depend on the processing

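In edgeR 0 genes passed the adjusted threshold in any setting, 0.1 in place of 0.05 included. DESeq2 called 1 gene, *G0s2*, which is not among the 52 and is named after its values were seen. The median log2 fold change of the fitted differentiation genes, 1.15, was 1.18 with DESeq2, RLE or upper-quartile factors, 1.14 with no filter, 0.72 with a mean of at least 5 CPM and 1.77 with limma-voom. Leaving out 1 tumor gave -0.45 (without *Ldha*-null tumor 3) to 4.03 (without wild-type tumor 5). The late minus early difference between genotypes, 0.23, was 0.75 with the *Lce* family counted as late, 0.01 to 0.46 under the other settings and 0.14 to 0.36 with 1 tumor left out. Of 431 refitted values of the 27 named genes, 56 changed sign, and of the 419 that had an adjusted p (12 from DESeq2 had none) 0 passed the threshold. The causes were not tested.

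Replicate numbers are shared between genotypes, but nothing says that they pair the tumors, and same-numbered tumors deviated together with correlations from -0.511 to 0.551. With the replicate number as a block, 0 genes were called, 1 of the 44 genes had an unadjusted edgeR p under 0.05, against 120 of all 15176 genes, and the median was 1.96.

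There were 5 tumors per genotype, and the common biological coefficient of variation over all genes tested was 63.4%. The fitted differentiation genes had intervals at least 5.1 log2 units wide, which does not hold for all genes tested.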
